A study of Rattus norvegicus with 119 samples.

Results

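The miR-29 family was followed through the bladder lining of Sprague-Dawley rats given pioglitazone or rosiglitazone. Its members are the 5 rows of the deposited table, out of 301 rat miRNAs, whose names start with rno-miR-29a, rno-miR-29b or rno-miR-29c: the main strands rno-miR-29a, rno-miR-29b and rno-miR-29c, and the minor strands rno-miR-29a* and rno-miR-29c*. Within the table they were taken by name, and unrelated rows such as rno-miR-298 were not included. The family itself was chosen with earlier results of these data known. Rats of both sexes received, by mouth and every day, vehicle (0.5% methylcellulose), a low (16 mg/kg/day) or a high (63 mg/kg/day) dose of pioglitazone hydrochloride, or 10 mg/kg/day of rosiglitazone maleate. Dosing lasted 3, 28 or 90 days. Pioglitazone and rosiglitazone belong to the thiazolidinediones, which activate PPAR gamma, a nuclear receptor. Animals were killed 1 day after the last dose, and the urothelium was scraped off the opened bladder. By the design, RNA of 5 of the 10 rats dosed per sex and group was hybridised to 1-colour Agilent miRNA arrays. Males given the low dose of pioglitazone for 28 days have only 4 deposited arrays. All 24 groups are intact rats of 1 strain that differ in agent, dose, sex and time, and a scrape can carry tissue beneath the epithelium. The rats' ages are not stated in the sources used here.

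A miRNA gene is transcribed as a hairpin, and either arm of the hairpin can become a mature strand that is loaded into a silencing complex. The loaded strand pairs with messenger RNAs mainly through its seed, and so strands with the same seed share many targets. The main strands of miR-29 are best known for silencing extracellular matrix genes, among them collagens, elastin and fibrillin, and loss of miR-29 accompanies fibrosis in heart, lung, liver and kidney. They also target the DNA methyltransferases DNMT3A and DNMT3B and the survival factor MCL1. The minor strands, marked with an asterisk on the array, come from the other arm of the same hairpins, have other seeds and are much less studied.

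The mature sequences show what the 5 rows can and cannot have in common, and are credited to RefSeq (build GRCr8). RefSeq names strands by arm: the main strands were matched to its -3p names and the minor strands, by hand, to its -5p names. The array's probe sequences were not available to check this. The 3 main strands carry 1 seed (bases 2 to 8, in capitals), which in the RefSeq rat set of 693 mature names occurs in these 3 names only.
rno-miR-29a: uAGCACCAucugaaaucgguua
rno-miR-29b: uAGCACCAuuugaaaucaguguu
rno-miR-29c: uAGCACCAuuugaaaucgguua
rno-miR-29a*: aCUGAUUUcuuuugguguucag
rno-miR-29c*: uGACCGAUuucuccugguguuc
Counted from 1 at the 5′ end, rno-miR-29a and rno-miR-29c differed at a single base, C10U, outside the seed. Against rno-miR-29a, rno-miR-29b differed by C10U, G18A, U21G and A22U and was 1 base longer. Each minor strand's seed occurred in 1 RefSeq name. A probe cannot be assumed to separate strands that differ by 1 base, and how far rno-miR-29a and rno-miR-29c share signal was not tested.

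The strands come from a pair of clusters. On chromosome 4, minus strand, rno-miR-29a lies at chr4:60617968-60617989 and rno-miR-29a* at chr4:60618006-60618027, both within the Mir29a hairpin. A copy of rno-miR-29b lies beside them at chr4:60618342-60618364 in Mir29b1, with 291 bases between the hairpins. On chromosome 13, plus strand, rno-miR-29c* lies at chr13:109099374-109099395 and rno-miR-29c at chr13:109099412-109099433, both in the Mir29c hairpin. The second rno-miR-29b copy lies at chr13:109098882-109098904 in Mir29b2, 447 bases from that hairpin. Both copies give the same mature letters, so the rno-miR-29b row cannot be assigned to either cluster.

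Values are log2 units, on which a difference of 1 is 2-fold. Of 119 arrays, 3 are labelled as failing quality control and were left out, which left 116. That left 4 in vehicle males of day 28 and 3 in females given pioglitazone 16 for 28 days. Males given pioglitazone 16 for 28 days had 4 with none left out, and every other group had 5. A group of arrays stood apart before any comparison: vehicle males of day 28 differed from vehicle males of days 3 and 90 in 156 of 301 miRNAs (51.8%), while vehicle females of day 28 differed from their days 3 and 90 in 0 (0%; limma, adjusted p under 0.05; 14 at an unadjusted p under 0.05). In these males 108 of 301 miRNAs passed as lower, and markers of several cell types other than epithelium were low. Among them 4 of 5 fibroblast-associated miRNAs, 3 of 6 muscle miRNAs and the endothelial miR-126 passed the test as lower. Of 7 epithelial miRNAs (the miR-200 family, miR-203 and miR-205) 0 passed in either direction. The mean leukocyte level per array was 4.50 to 5.40, against 6.84 to 7.43 at day 3 and 6.42 to 7.75 at day 90. The median red cell level was 4.85, against 9.18 and 7.08. In addition, 15 arrays spread over 13 groups had a median over all miRNAs under 4, against a median of 5.39 and a highest value of 5.66 over the 116. The epithelial miRNAs were bright in every group (group medians of their mean level between 11.51 and 12.88), as the labelled tissue requires. In scraped tissue, fewer cells of a type and less RNA per cell cannot be told apart.

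The main strands were among the bright rows of the table. The value of rno-miR-29a ran from 10.78 to 14.89 over the 116 arrays, with a median of 13.60. It was highest in males given pioglitazone 16 for 90 days (14.30 ± 0.36, SD, n = 5) and lowest in vehicle females of day 90 (13.11 ± 1.33, n = 5). For rno-miR-29b, encoded in both clusters, the range was 4.54 to 14.72 with a median of 13.56. Its highest group was again males given pioglitazone 16 for 90 days (14.32 ± 0.34, n = 5), and its lowest was males given rosiglitazone for 28 days (11.78 ± 3.72, n = 5). For rno-miR-29c the range was 6.33 to 13.63 with a median of 12.07, and the highest and lowest groups were the same as for rno-miR-29b (12.60 ± 0.61 and 10.80 ± 2.52, n = 5 each). The large SDs belong to single arrays, as described below. With the 24 groups ranked by mean, no step between neighbouring groups exceeded the larger of their SDs, for any of the 5 strands (0 of 23 steps each).

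The minor strands lay far lower on the scale of their own probes. The value of rno-miR-29a* ran from 3.35 to 6.15 with a median of 3.79, and 111 of 116 arrays were under 5. The lowest value anywhere in the table was 2.69, so rno-miR-29a* was read close to the floor, where differences are compressed. Its lowest group was vehicle females of day 3 (3.50 ± 0.07, n = 5) and its highest was vehicle males of day 28 (4.99 ± 0.50, n = 4), with the next group at 4.33. For rno-miR-29c* the range was 3.42 to 8.03 with a median of 6.35, and 15 arrays were under 5. The same groups were at its ends, vehicle females of day 3 at 5.44 ± 1.33 (n = 5) and vehicle males of day 28 at 7.20 ± 1.46 (n = 4).

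**Figure D1:**
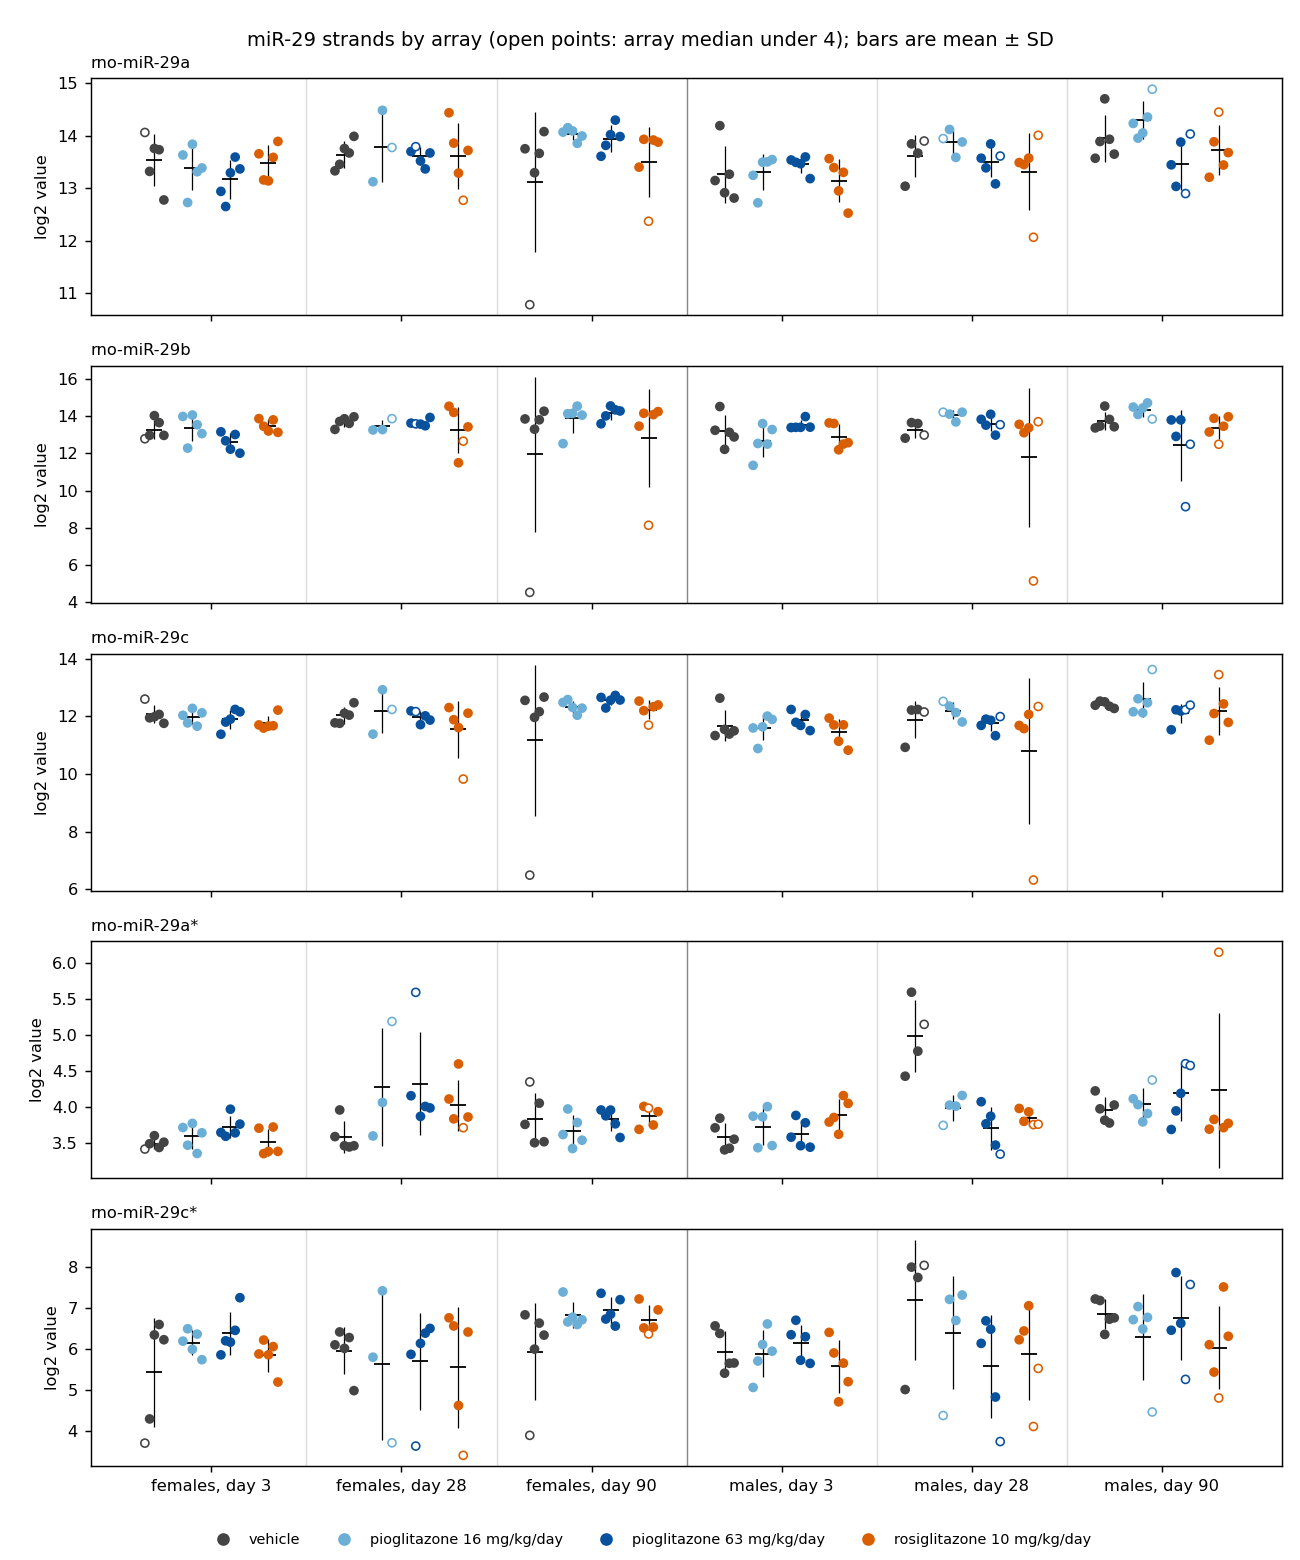
Log2 value of each miR-29 strand on every array (y axis), by sex and day (x axis) and treatment (colour), with the mean and SD of each group; open points are arrays with a median under 4. The main strands sit mostly between 12 and 14.5 with a few arrays far below, and rno-miR-29a* is highest in vehicle males of day 28.

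A few arrays carried nearly all of the low main-strand values. On replicate 2 of the vehicle females of day 90, rno-miR-29a was 10.78, rno-miR-29b 4.54 and rno-miR-29c 6.50. On replicate 4 of the males given rosiglitazone for 28 days they were 12.06, 5.15 and 6.33. Both arrays were low in all 3 main strands, and lowest in rno-miR-29b and rno-miR-29c. Replicate 3 of the females given rosiglitazone for 90 days was low in rno-miR-29b (8.14), with rno-miR-29a at 12.37 and rno-miR-29c at 11.70. Replicate 4 of the males given pioglitazone 63 for 90 days was also low in rno-miR-29b (9.14), with rno-miR-29a at 12.90 and rno-miR-29c at 12.23. These 4 arrays had medians between 3.70 and 3.86. On them 66, 52, 41 and 13 of the 301 miRNAs, in the order named, lay more than 3 below their group's median, so the drop was not confined to miR-29. What lowered these arrays was not tested.

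Across arrays the 3 main strands moved together. Over the 116 arrays Pearson's r was 0.80 between rno-miR-29a and rno-miR-29c, 0.75 between rno-miR-29a and rno-miR-29b, and 0.75 between rno-miR-29b and rno-miR-29c. Without the 4 low arrays (n = 112) the first stayed at 0.80, while the others were 0.63 and 0.40. The closest pair thus came from different clusters and differs by 1 base, whereas neighbours of 1 cluster, such as rno-miR-29a and rno-miR-29b, were no closer. The arrays share a common brightness, which such an r also contains. A main strand and the minor strand of its own hairpin were less alike, at 0.18 for rno-miR-29a and rno-miR-29a* and 0.40 for rno-miR-29c and rno-miR-29c*. With each array centred on its median, r was 0.72 for the rno-miR-29a pair and 0.40 for the rno-miR-29c pair. Between rno-miR-29a and rno-miR-29b it was then 0.49. All centred values carry the array's median, and the reason for these changes was not tested.

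**Figure D2:**
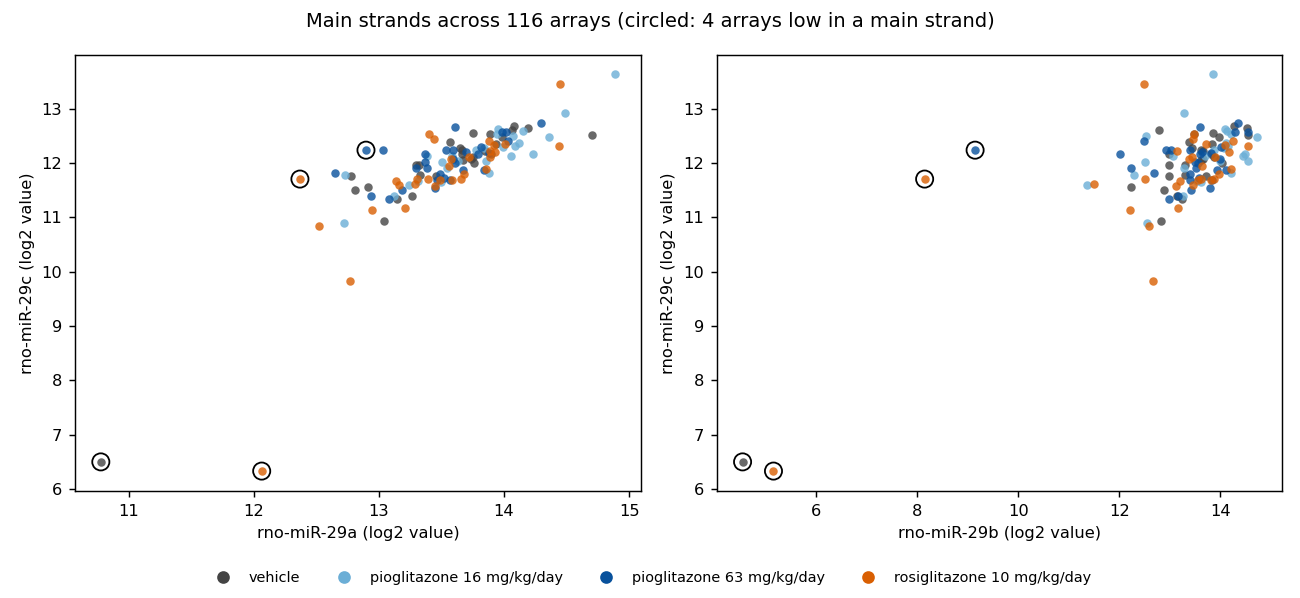
Log2 values of rno-miR-29c (y axes) against rno-miR-29a (left) and rno-miR-29b (right), 1 point per array, coloured by treatment; the 4 arrays low in a main strand are circled. The cloud on the left is narrow (r of 0.80 with or without the circled arrays), and on the right it depends on them (0.75 with, 0.40 without).

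Among all other rows, those most like each strand were read from Pearson's r over the 116 arrays. For rno-miR-29a they were rno-miR-29c (0.80), rno-miR-29b (0.75) and rno-miR-27a (0.62). For rno-miR-29c they were rno-miR-27a (0.88), rno-miR-29a and rno-miR-29b, and without the 4 low arrays rno-miR-29a (0.80), rno-miR-27a (0.56) and rno-miR-22 (0.55). For rno-miR-29b they were rno-miR-21 (0.88), rno-miR-16 (0.84) and rno-miR-27a (0.78), and without those arrays rno-miR-21 (0.76), rno-miR-193 (0.68) and rno-miR-135b (0.66). These rankings rest in part on 4 arrays. rno-miR-29b, alone of the main strands, had no member of the family among its 3 closest, with or without them. For rno-miR-29a* they were rno-miR-15b* (0.71), rno-miR-2985 (0.71) and rno-miR-539 (0.64), and for rno-miR-29c* they were rno-miR-345-5p (0.74), rno-miR-192 (0.74) and rno-miR-99a* (0.64). The strands also differed in how they followed the array's median: r was -0.49 for rno-miR-29a*, 0.48 for rno-miR-29c*, 0.51 for rno-miR-29b, 0.14 for rno-miR-29a and 0.19 for rno-miR-29c (n = 116). On the 15 arrays with a median under 4, rno-miR-29a* had a median of 4.35 against 3.79 on the other 101, rno-miR-29c* 4.39 against 6.41, and rno-miR-29b 12.79 against 13.60. On the same arrays rno-miR-29a (13.79 against 13.59) and rno-miR-29c (12.23 against 12.04) were not lower by their medians.

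Whether a thiazolidinedione changes the family was asked in 18 comparisons, each of treated rats with vehicle rats of the same sex and day. No main strand passed the test in any of them (2 of 18 for each had an unadjusted p under 0.05, all in females of day 90), and the only calls were in males of day 28. There rno-miR-29a* was lower than in vehicle rats with all 3 treatments, and rno-miR-29c* was lower with pioglitazone 63. Averaged over both sexes and the 3 days, no member passed for any treatment: the mean differences of the 5 strands ran from -0.02 to 0.44 for pioglitazone 16, from -0.01 to 0.15 for pioglitazone 63 and from -0.28 to -0.01 for rosiglitazone. In those averages 0 (0%), 32 (10.6%) and 34 (11.3%) of 301 miRNAs passed. Over the 18 comparisons rno-miR-29a was higher than vehicle in 8 and lower in 10, rno-miR-29b in 9 and 9, and rno-miR-29c in 7 and 11. The standard errors of single comparisons were 0.32 to 0.37 for rno-miR-29a, 0.55 to 0.64 for rno-miR-29c and 0.91 to 1.05 for rno-miR-29b, and in the last even differences of 1.93 and 2.20 did not pass. Outside males of day 28 the share of all miRNAs called was 0% in 12 of the 15 comparisons, 0.332% (1 miRNA) in females with pioglitazone 16 at day 28 and in females with pioglitazone 63 at day 90, and 3.65% in males with rosiglitazone at day 3.

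**Figure D3:**
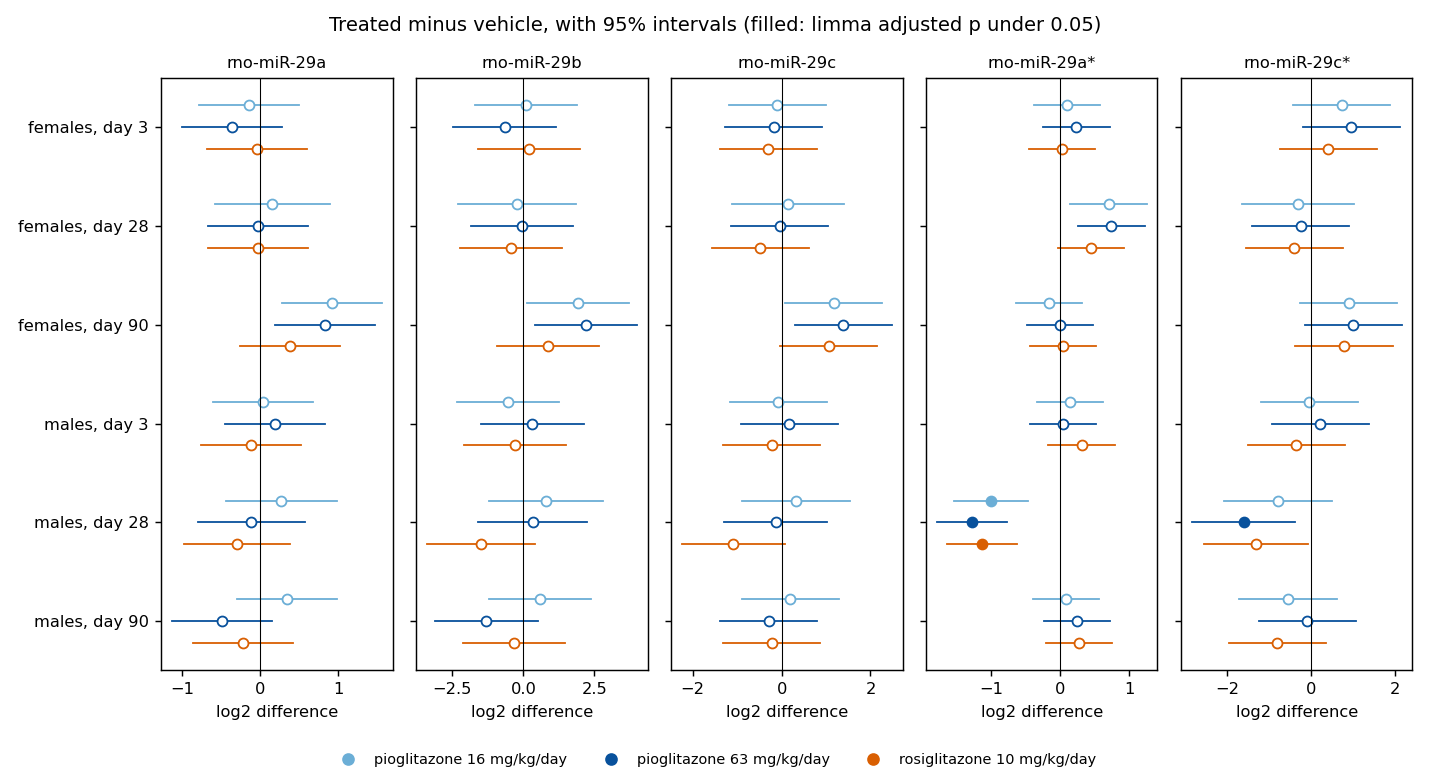
Difference between treated and vehicle rats in log2 units (x axes) for each strand, by sex and day (y axis) and treatment (colour), with 95% intervals from limma; filled points passed at an adjusted p under 0.05. Filled points appear only for males of day 28, 3 for rno-miR-29a* and 1 for rno-miR-29c*.

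In males of day 28, rno-miR-29a* was high in vehicle rats and not in treated ones. The 4 vehicle arrays read 4.43, 5.60, 4.78 and 5.15. Males given pioglitazone 16 read 3.75, 4.03, 4.02 and 4.17, those given pioglitazone 63 read 4.08, 3.77, 3.88, 3.48 and 3.35, and those given rosiglitazone read 3.99, 3.81, 3.94, 3.76 and 3.77. Every vehicle array lay above all 14 treated arrays. The difference was -0.999 with pioglitazone 16 (SE 0.27, adjusted p = 0.0111), -1.28 with pioglitazone 63 (SE 0.26, adjusted p = 2.40e-05) and -1.14 with rosiglitazone (SE 0.26, adjusted p = 1.88e-04; limma). These 3 comparisons share their 4 vehicle arrays. The vehicle array left out for failing quality control read 4.65. In the same comparisons 38 (12.6%), 112 (37.2%) and 74 (24.6%) of 301 miRNAs passed in either direction, and 8.31%, 15.6% and 17.3% passed as lower. The share of miRNAs with every treated array below every vehicle array was 1.99% in each. By the exact permutation test over arrays, two-sided, the adjusted p was 0.465, 0.114 and 0.217, with 70, 126 and 126 arrangements. So few arrangements limit what can be reached. With 126 arrangements the unadjusted p of rno-miR-29a* by this test was 0.00794 with pioglitazone 63 and with rosiglitazone, the lowest it can give. It was the same between vehicle males and vehicle females of day 28, where the adjusted p was 0.0332. These adjusted values differ only through the other miRNAs, so the test cannot show more about rno-miR-29a* itself.

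The calls for rno-miR-29a* were read against how arrays were scaled. The 4 vehicle arrays were dim, with medians between 3.995 and 4.82 against 5.39 over all arrays, and rno-miR-29a* ran against the array median over the study (r of -0.49). Fitted with each array's median as a further term, the differences were -0.84, -1.13 and -1.09 with pioglitazone 16, pioglitazone 63 and rosiglitazone, and all 3 passed (adjusted p of 0.0192, 4.49e-05 and 7.08e-05). Centring each array on its median moved the median of all 301 differences from 0.01 to -0.60 with pioglitazone 16, from 0.37 to -0.19 with pioglitazone 63 and from 0.16 to -0.03 with rosiglitazone. The differences of rno-miR-29a* were then -1.60, -1.85 and -1.33, lower than those medians throughout, with adjusted p of 0.0520, 0.00554 and 0.0747. The split of calls moved as well: with pioglitazone 63 it was 65 higher and 47 lower as deposited and 48 and 51 when centred, and with pioglitazone 16 it was 13 and 25 as deposited and 22 and 21 after quantile normalization. Without the arrays with a median under 4, rno-miR-29a* passed in all 3 (-0.87, -1.14 and -1.03, adjusted p of 4.52e-04, 3.38e-07 and 7.24e-06). Without vehicle replicate 3 or 5 the pioglitazone 16 comparison lost its call (-0.80 and -0.95, adjusted p of 0.136 and 0.0872).

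The vehicle males of day 28 also differed from vehicle rats of the other sex and of the other days. Their rno-miR-29a* was 1.40 higher than in vehicle females of day 28 (SE 0.26, adjusted p = 3.45e-06), whose arrays read 3.59, 3.96, 3.47, 3.45 and 3.47. Every male array lay above every female array, as did 5.65% of all miRNAs, and 147 of 301 (48.8%) passed between those groups, 16.6% as higher in males. It was 1.21 higher than in vehicle males of days 3 and 90 (SE 0.23, adjusted p = 4.87e-06), where 15.9% of all miRNAs passed as higher. Treated males showed no such step at day 28: the difference from their own days 3 and 90 was 0.10 with pioglitazone 16, -0.21 with pioglitazone 63 and -0.22 with rosiglitazone, and none passed (shares of all miRNAs called of 24.6%, 0% and 0.332%). Between vehicle males and females of days 3 and 90, rno-miR-29a* differed by 0.10 and 0.13, and no member passed (0% and 0.332% of all miRNAs).

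Of the arrays outside that vehicle group, 6 of 112 had more rno-miR-29a* than its lowest array. The highest was replicate 3 of the males given rosiglitazone for 90 days, at 6.15, with the other 4 of its group between 3.70 and 3.83. The next were replicate 2 of the females given pioglitazone 63 for 28 days (5.60) and replicate 4 of the females given pioglitazone 16 for 28 days (5.19), both again alone in their groups. All 3 arrays had medians under 4. In females of day 28 these values went with differences from vehicle of 0.70 (pioglitazone 16, adjusted p = 0.317) and 0.74 (pioglitazone 63, adjusted p = 0.441), and neither passed. Without those single arrays they were 0.25 and 0.42.

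The difference in rno-miR-29a* between treated and vehicle rats was not the same in the sexes at day 28. The male difference minus the female difference was -1.70 with pioglitazone 16 (SE 0.39, adjusted p = 0.00373), -2.02 with pioglitazone 63 (SE 0.35, adjusted p = 2.64e-06) and -1.58 with rosiglitazone (SE 0.35, adjusted p = 2.19e-04). In these tests 8.64%, 26.6% and 22.6% of all miRNAs passed. Within males, the effect at day 28 minus that at days 3 and 90 was -1.11, -1.42 and -1.43 (adjusted p of 0.0398, 1.46e-04 and 1.38e-04), where 1.99%, 30.9% and 18.6% passed. All 6 tests use the 4 vehicle males of day 28, so an effect of the drugs and a trait of that vehicle group cannot be told apart. Without the female array at 5.19 the sex difference with pioglitazone 16 was -1.25 and lost its call (adjusted p = 0.0726). Without the arrays with a median under 4, a choice made after seeing the data, all 6 passed. The shares of all miRNAs that passed in those refits are not given here. The difference between days with pioglitazone 16 lost its call with the array median as a covariate (-0.89, adjusted p = 0.0717). It also lost it without any 1 of several arrays: vehicle males of day 28 (replicates 3, 4 and 5), day 3 (3 and 4) and day 90 (3 and 4), and males given pioglitazone 16 for 28 days (1, 2 and 3) and 90 days (1 and 5), with adjusted p between 0.0512 and 0.306. No other member passed in either kind of test.

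The other minor strand, rno-miR-29c*, was high on 3 of those 4 vehicle arrays. They read 5.02, 7.99, 7.74 and 8.03. Males given pioglitazone 63 read 6.14, 6.69, 6.48, 4.84 and 3.76, and those given rosiglitazone read 6.23, 6.44, 7.05, 4.12 and 5.53. The low vehicle array lay within the treated range and the other 3 above it, so the groups overlapped. The difference was -1.62 with pioglitazone 63 (SE 0.62, adjusted p = 0.0328), -1.32 with rosiglitazone (SE 0.62, adjusted p = 0.116) and -0.79 with pioglitazone 16 (SE 0.65, adjusted p = 0.578). Without the arrays with a median under 4 the 3 differences were -0.88, -0.34 and 0.16, and none passed, so the call with pioglitazone 63 and the direction with pioglitazone 16 rest on those arrays. The call with pioglitazone 63 was also lost without vehicle replicate 3, 4 or 5 (adjusted p of 0.135, 0.0965 and 0.139) and without treated replicate 4 or 5 (-1.43 and -1.16, adjusted p of 0.0770 and 0.145). With arrays centred, the differences were -1.40, -2.18 and -1.51 in the order pioglitazone 16, pioglitazone 63 and rosiglitazone, and the last passed (adjusted p = 0.0127). Without vehicle replicate 1, the low array, the rosiglitazone difference was -2.05 and passed (adjusted p = 0.00863).

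**Figure D4:**
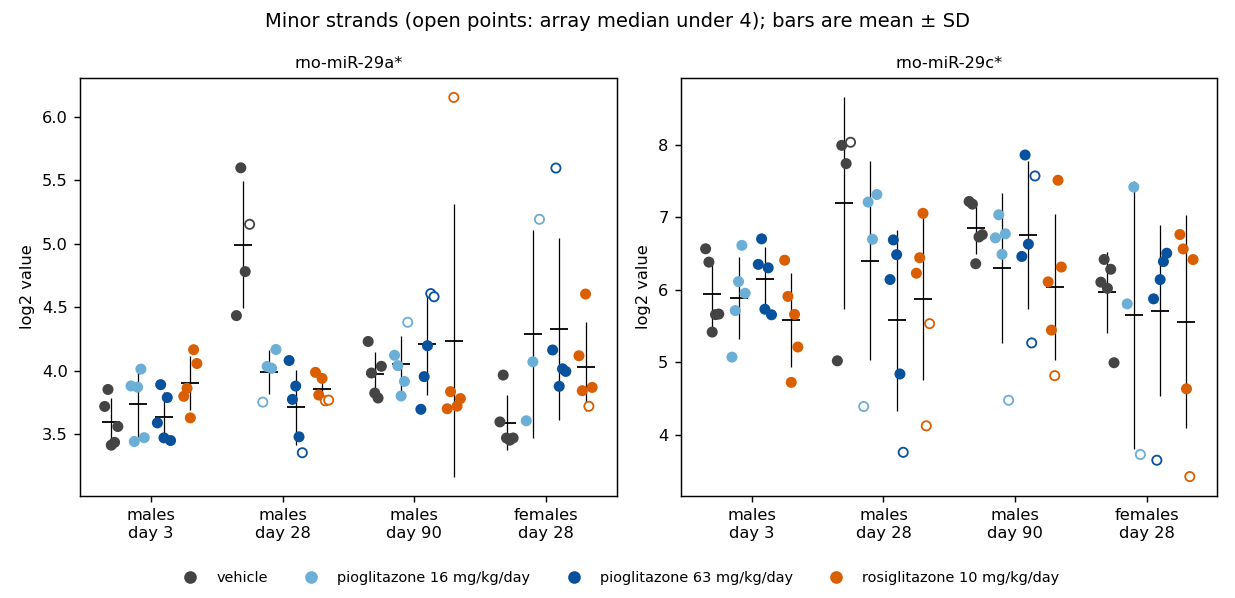
Log2 values of rno-miR-29a* (left) and rno-miR-29c* (right) on every array of males of days 3, 28 and 90 and of females of day 28, by treatment (colour), with mean and SD; open points are arrays with a median under 4. For rno-miR-29a* the 4 vehicle males of day 28 (4.43 to 5.60) sit above all 14 treated males of that day (at most 4.17).

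The main strands did not follow their minor strands in these males. The vehicle arrays of day 28 read 13.04, 13.85, 13.67 and 13.90 for rno-miR-29a, and the differences were 0.27, -0.11 and -0.30 with pioglitazone 16, pioglitazone 63 and rosiglitazone. Its group means thus stayed within 1 SE of the vehicle mean. For rno-miR-29b the 4 vehicle arrays (12.82, 13.66, 13.61 and 12.99) lay below all 4 pioglitazone 16 arrays (14.22, 14.12, 13.70 and 14.22), as was true of 0.997% of miRNAs, and the difference of 0.79 did not pass (SE 1.02, adjusted p = 0.853). With rosiglitazone rno-miR-29b was -1.49 and rno-miR-29c -1.08 from vehicle (adjusted p of 0.302 and 0.185), values set by replicate 4. Without the 4 low arrays they were 0.17 and 0.03.

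Other miRNAs moved with the minor strands in these comparisons. Over all 301 miRNAs, 8.31%, 15.6% and 17.3% passed as lower with pioglitazone 16, pioglitazone 63 and rosiglitazone. Of the 69 other rows named with an asterisk, 9 fell and 0 rose with pioglitazone 16, 15 fell and 4 rose with pioglitazone 63, and 18 fell and 4 rose with rosiglitazone, with list medians of -0.11, 0.14 and 0.11 beside medians over all miRNAs of 0.01, 0.37 and 0.16. Examples are rno-let-7b* (-5.08 with pioglitazone 63 and -5.21 with rosiglitazone) and rno-miR-487b* (-4.28 and -4.44). Markers of other cells moved too. The endothelial miR-126 rose with pioglitazone 16 (2.95, adjusted p = 0.0153), pioglitazone 63 (3.90, adjusted p = 3.58e-05) and rosiglitazone (3.86, adjusted p = 4.71e-05). With pioglitazone 16 no other marker passed, and with rosiglitazone 1 of 4 leukocyte miRNAs did (rno-miR-223, 2.53, adjusted p = 0.00118). With pioglitazone 63, 4 of 5 fibroblast-associated miRNAs, 1 of 6 muscle, both red cell and 2 of 4 leukocyte miRNAs passed as higher, and 0 of 7 epithelial ones passed. Over all miRNAs 4.32%, 21.6% and 7.31% passed as higher with pioglitazone 16, pioglitazone 63 and rosiglitazone. The mean fibroblast level per array was 5.03 to 6.35 in vehicle males of day 28, 4.50 to 7.86 with pioglitazone 16, 5.68 to 8.76 with pioglitazone 63 and 4.65 to 8.40 with rosiglitazone. The mean epithelial level was 11.68 to 12.68 in vehicle males and 8.50 to 12.80 over the treated groups. No defining marker is listed at 0 on this scale. The part of these cells in the fall of the minor strands was not tested.

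miRNAs with a known bearing on fibrosis gave a mixed picture beside miR-29 in these males. Of 5 measured miRNAs described as promoting fibrosis, 1 rose with pioglitazone 63 (rno-miR-214, 2.92, adjusted p = 0.0355), 1 fell with rosiglitazone (rno-miR-34a, -1.69, adjusted p = 0.0428) and 0 passed with pioglitazone 16. rno-miR-21, the best known of them and the row most like rno-miR-29b, was at 0.94, 0.73 and -1.13 and did not pass. Of 17 described as restraining fibrosis, 1 rose with pioglitazone 16 (rno-miR-101b, 1.96, adjusted p = 0.0467), 3 rose with pioglitazone 63 (rno-miR-30b-5p 3.50, rno-miR-101a 2.70 and rno-miR-101b 2.67) and 1 rose with rosiglitazone (rno-miR-101b, 2.07). Their list medians were 0.18, 0.67 and -0.28. Both lists are beside shares of 12.6%, 37.2% and 24.6% of all miRNAs called, so the counts are not above those of the table.

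In females of day 90 the means of the main strands were higher with each drug, but 1 vehicle array made that difference. For rno-miR-29a the 5 vehicle arrays read 13.75, 10.78, 13.29, 13.66 and 14.08, those of pioglitazone 16 read 14.07, 14.15, 14.09, 13.86 and 13.99, and those of pioglitazone 63 read 13.61, 13.82, 14.02, 14.30 and 13.98. Apart from the second vehicle array, the groups overlapped. With pioglitazone 16 the differences were 0.92 for rno-miR-29a, 1.93 for rno-miR-29b and 1.17 for rno-miR-29c, and with pioglitazone 63 they were 0.83, 2.20 and 1.39. With rosiglitazone they were 0.39, 0.87 and 1.06. None passed, and the lowest adjusted p was 0.273. Without that array the differences were 0.34, 0.08 and 0.00 with pioglitazone 16, 0.25, 0.35 and 0.22 with pioglitazone 63, and -0.20, -0.99 and -0.11 with rosiglitazone. In the last of these the rno-miR-29b value again rests on 1 array, rosiglitazone replicate 3 (8.14), and without the 4 low arrays it was 0.18.

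At days 3 and 90 in males and at day 3 in females, no member passed with any drug. In males of day 90, rno-miR-29a was 0.35 from vehicle with pioglitazone 16, -0.49 with pioglitazone 63 and -0.22 with rosiglitazone. In females of day 3, rno-miR-29c* was 0.72, 0.95 and 0.41 above vehicle, where replicates 1 and 2 of the vehicle rats (3.72 and 4.30) lay below all others of their group (6.23 to 6.60). Without the arrays with a median under 4, replicate 1 among them, the differences were 0.29, 0.52 and -0.02. The doses of pioglitazone and rosiglitazone differ, so their values stand side by side without a test.

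The higher dose of pioglitazone was compared with the lower in each sex and day, 6 comparisons of the 5 members, and no member passed (2 of 30 tests at an unadjusted p under 0.05). In males of day 90 rno-miR-29b was lower with 63 than with 16 mg/kg/day, by -1.89 (SE 0.91, 95% interval -3.69 to -0.09, adjusted p = 0.560). All 5 arrays of the higher dose (13.80, 12.92, 13.80, 9.14 and 12.50) lay below all 5 of the lower (14.49, 14.10, 14.45, 14.72 and 13.85), as did 1.99% of all miRNAs. Without replicate 4 of the higher dose (9.14) the difference was -1.07 (adjusted p = 0.919). rno-miR-29a went the same way (-0.84, SE 0.32, 95% interval -1.48 to -0.20, adjusted p = 0.360), and its groups overlapped. In males of day 28 the difference was -0.28 for rno-miR-29a* (95% interval -0.79 to 0.23) and -0.82 for rno-miR-29c* (-2.05 to 0.41). The shares of all miRNAs called between doses were 0% in females of days 3 and 90, in males of day 3 and in the mean, 0.332% in females of day 28 and in males of day 90, and 8.97% in males of day 28.

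Levels were also compared between times. Day 90 was set against day 3 as the mean over the 4 treatments and both sexes, a comparison added after the values had been seen. rno-miR-29a, rno-miR-29a* and rno-miR-29c* were higher at day 90, and 10 of 301 miRNAs (3.32%) passed as higher, of 45 (15.0%) in either direction. rno-miR-29a had medians of 13.38, 13.67 and 13.89 at days 3, 28 and 90 (n = 40, 36 and 40) and was 0.41 higher at day 90 than at day 3 (SE 0.11, adjusted p = 0.00611). rno-miR-29c* had medians of 6.03, 6.25 and 6.69 and was 0.62 higher (SE 0.21, adjusted p = 0.0269). With arrays centred on their medians rno-miR-29a* lost its call (0.43, adjusted p = 0.110). As deposited, rno-miR-29a* had medians of 3.64, 3.95 and 3.90 and was 0.31 higher (SE 0.09, adjusted p = 0.00590). At day 90 the spread of arrays was larger than these shifts, with SDs of 0.67 for rno-miR-29a, 0.45 for rno-miR-29a* and 0.81 for rno-miR-29c*. At day 3 the SDs were 0.39, 0.21 and 0.67 in the same order, below the shift for rno-miR-29a and rno-miR-29a*.

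The other main strands leaned the same way, with more spread from the low arrays. rno-miR-29c had medians of 11.77, 12.01 and 12.35 at days 3, 28 and 90 and a difference of 0.41 (SE 0.19, adjusted p = 0.158). rno-miR-29b had medians of 13.19, 13.60 and 13.85 and a difference of 0.20 (SE 0.32, adjusted p = 0.815). Without the 15 arrays with a median under 4 all 5 members passed: rno-miR-29a by 0.50 (SE 0.09, adjusted p = 6.86e-06), rno-miR-29b by 0.74 (SE 0.14, adjusted p = 1.60e-05), rno-miR-29c by 0.50 (SE 0.09, adjusted p = 5.54e-06), rno-miR-29a* by 0.19 (SE 0.06, adjusted p = 0.00884) and rno-miR-29c* by 0.77 (SE 0.15, adjusted p = 3.08e-05). There 21 of 301 miRNAs (6.98%) passed as higher. This choice was made after seeing the data and kept 39 of 40 arrays of day 3 but 34 of 40 of day 90. It took out all 4 arrays low in a main strand, which raises the main strands at day 90 by construction.

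The shift was then read in each of the 8 combinations of treatment and sex. rno-miR-29a* and rno-miR-29c* had higher means at day 90 in 8 of 8, rno-miR-29a and rno-miR-29c in 7 of 8 and rno-miR-29b in 5 of 8. In males given rosiglitazone the higher rno-miR-29a* mean rested on 1 array, replicate 3 of day 90 (6.15). The others of that group lay between 3.70 and 3.83, below the day 3 mean of 3.90. The exception for rno-miR-29a and rno-miR-29c was vehicle females (-0.42 and -0.90), the group with the low second array. Without that array they were 0.17 and 0.26. Without the arrays with a median under 4, rno-miR-29c and rno-miR-29c* were higher in 8 of 8, and rno-miR-29a, rno-miR-29b and rno-miR-29a* in 7 of 8. No single combination passed for any member in the comparison of all arrays. In vehicle rats alone the differences in males were 0.68 for rno-miR-29a, 0.53 for rno-miR-29b and 0.73 for rno-miR-29c, and no member passed in males or females (shares of all miRNAs of 8.31% and 0%).

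Array by array, 4 of the 8 combinations held a member whose day 90 arrays all lay above its day 3 arrays. In males given pioglitazone 16, rno-miR-29a read 13.24, 12.72, 13.50, 13.50 and 13.55 at day 3 and 14.23, 13.95, 14.05, 14.36 and 14.89 at day 90. The groups did not overlap, and the same was true of rno-miR-29b and rno-miR-29c there, beside 1.66% of all miRNAs with every day 90 array higher. In females given pioglitazone 63 the 3 main strands again did not overlap (rno-miR-29a at 12.65 to 13.59 and 13.61 to 14.30), beside 2.33%. In females given pioglitazone 16, rno-miR-29a and rno-miR-29c* did not overlap, beside 0.997%, and in females given rosiglitazone rno-miR-29c* did not, beside 1.66%. In males given pioglitazone 63, rno-miR-29a differed by 0.00 and rno-miR-29b by -1.09, and without replicate 4 of day 90 (9.14) the latter was -0.27. Whether the shift differs between treatments was not tested.

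**Figure D5:**
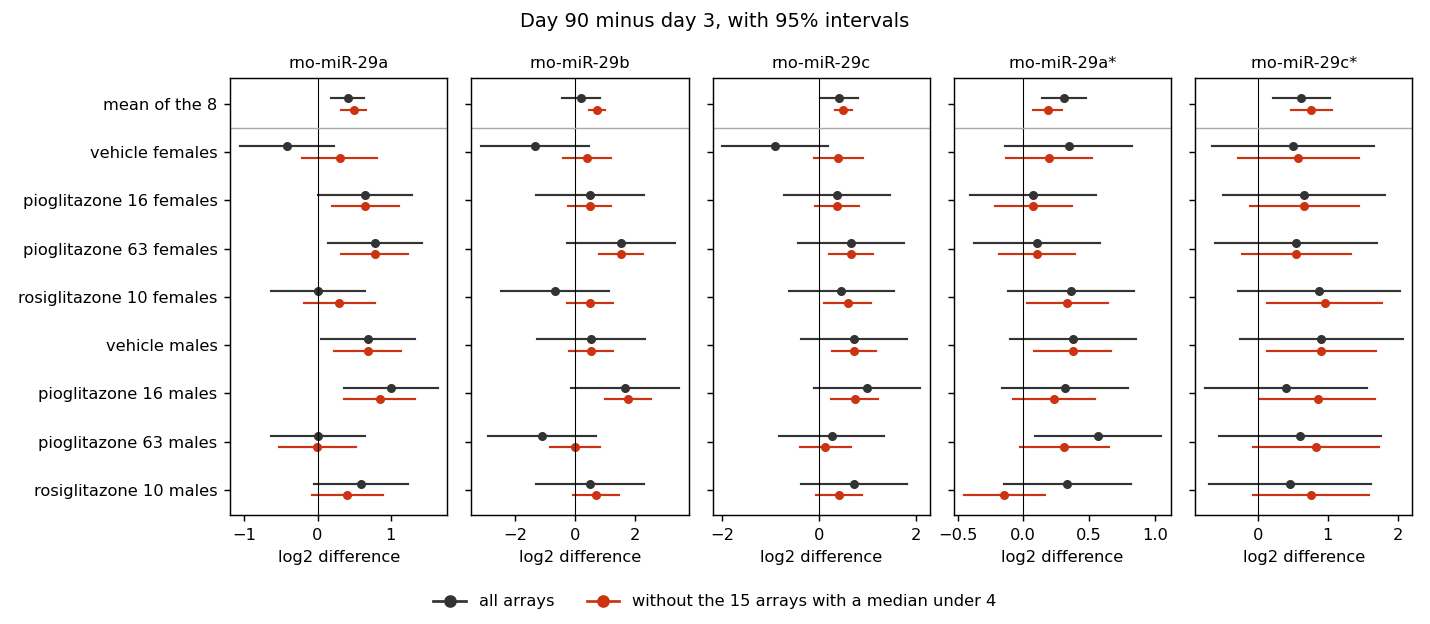
Day 90 minus day 3 in log2 units (x axes) for each strand, as the mean of the 8 combinations of treatment and sex (top) and in each of them (rows), with 95% intervals; black is all 116 arrays and red leaves out the 15 arrays with a median under 4. In the mean, all intervals in red lie above 0, from 0.08 for rno-miR-29a* upward, and in black those of rno-miR-29b span 0. The arrays left out in red include the 4 low in a main strand, which raises the main strands at day 90 by construction.

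Other miRNAs linked to fibrosis did not pass between day 3 and day 90. Of 5 fibrosis-promoting miRNAs 0 passed (list median -0.12), and of 17 fibrosis-restraining ones 0 passed (0.04), beside a median of -0.01 over all miRNAs and 0.41 over the 5 miR-29 strands. Of 69 other minor strands 2 rose and 5 fell (0.01). Of the cell markers, 1 of 5 fibroblast-associated miRNAs fell (rno-miR-199a-3p, -1.35, adjusted p = 0.0266; list median -0.77), 1 of 2 red cell miRNAs fell (rno-miR-144, -1.07; list median -1.03), and 0 of 7 epithelial (0.25), 0 of 6 muscle (-0.34) and 0 of 4 leukocyte miRNAs (0.33) passed. The part of these cells in the rise of miR-29 was not tested. Time here is both the length of dosing and the age of the rats, which cannot be told apart, and the arrays carry no label of slide or run.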

How the data were processed

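The deposited table holds log2 values of 301 rat miRNAs on 119 arrays, which the submitters' processing notes link to RMA and limma without versions. How background was removed, probes were summarised and rows were filtered is not given in those sources. Array medians over the 301 rows differ. Whether the arrays had been brought to a common distribution before rows were filtered is not known. Detection calls and labels of slide or scan were not used here. Each array is a rat of its own per the labels. The low pioglitazone dose is 16 mg/kg/day in the labels and 13 in the series' design text. The number of arrays limits the precision.

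The log2 values were fitted as deposited by the authors, with 1 mean per group over 24 groups, in limma 3.58.1 (R 4.3.3) and variances were moderated across miRNAs (residual degrees of freedom 92, prior 2.33). In every contrast the 301 two-sided p-values were adjusted after Benjamini and Hochberg, with a threshold of 0.05. The test was tried on simulated data. The members, the miRNA lists and the contrasts were chosen with earlier results of these data known. All 5 members were described in every group, the most similar rows were the 3 with the highest Pearson's r, and lists were described by counts and medians. Of the 301 names, 262 matched a RefSeq mature name when any asterisk was dropped and a name of either arm was accepted. No 2 arrays were identical (highest r 0.995). Figures used matplotlib.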

Additional observations from a re-analysis of the deposited data

Results flagged for a closer look

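In 115 sets of values (5 strands in the 23 groups of 4 or 5 arrays), 24 had an array whose distance to its nearest neighbour was large for the group's range by Dixon's 95% limit, where chance alone gives about 1 in 20. For the main strands the low values were those of vehicle females of day 90, replicate 2 (rno-miR-29a 10.78, rno-miR-29b 4.54 and rno-miR-29c 6.50), and of males given rosiglitazone for 28 days, replicate 4 (12.06, 5.15 and 6.33). rno-miR-29b was also low in females given rosiglitazone for 90 days, replicate 3 (8.14), males given pioglitazone 63 for 90 days, replicate 4 (9.14), and females given pioglitazone 16 for 90 days, replicate 1 (12.53), and high in males given pioglitazone 63 for 3 days, replicate 4 (13.98). rno-miR-29c was low in females given rosiglitazone for 28 days, replicate 4 (9.83), vehicle males of day 28, replicate 1 (10.93), and males given pioglitazone 63 for 90 days, replicate 1 (11.54), and high in females given rosiglitazone for 3 days, replicate 5 (12.22), and vehicle males of day 3, replicate 2 (12.64).

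For the minor strands, rno-miR-29a* was high in males given rosiglitazone for 90 days, replicate 3 (6.15), females given pioglitazone 63 for 28 days, replicate 2 (5.60), and vehicle females of day 28, replicate 2 (3.96). rno-miR-29c* was low in females given pioglitazone 63 for 28 days, replicate 2 (3.65), vehicle females of day 90, replicate 2 (3.91), males given pioglitazone 16 for 90 days, replicate 5 (4.47), vehicle females of day 28, replicate 5 (4.99), and vehicle males of day 28, replicate 1 (5.02), and high in females given pioglitazone 16 for 90 days, replicate 1 (7.39).

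Of 75 tests of a difference between effects, 6 passed, all for rno-miR-29a*. The effect in males minus that in females at day 28 was -1.70 with pioglitazone 16, -2.02 with pioglitazone 63 and -1.58 with rosiglitazone. The effect in males at day 28 minus that at days 3 and 90 was -1.11, -1.42 and -1.43. All 6 share the 4 vehicle males of day 28, and both with pioglitazone 16 lost their call without single arrays.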

How the results depend on the processing

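The counts of members called were recomputed under each alternative; the arrays with a median under 4 and those low in a main strand were chosen as alternatives after seeing the data. In males of day 28 with pioglitazone 16 (1 member called), 0 were called when arrays were centred, after quantile normalization, among brighter miRNAs only (which drops rno-miR-29a*), in a fit of only the groups compared and by the exact permutation test. With pioglitazone 63 (2 called), 1 was called among brighter miRNAs, with only the groups compared and without the arrays with a median under 4, and 0 by the exact permutation test. With rosiglitazone (1 called), 2 were called with the arrays that failed quality control kept or the array median as covariate, and 0 after quantile normalization, among brighter miRNAs, with only the groups compared and by the exact permutation test. Leaving out 1 array at a time gave 0 to 1, 1 to 2 and 1 to 2 members. In females with pioglitazone 16, quantile normalization gave 1 member at day 90 (0 before), and leaving out 1 array gave 0 to 1 at day 28. Between vehicle males and females of day 28 (1 called), 2 were called with failed arrays kept, centred, after quantile normalization or with the covariate, 0 among brighter miRNAs and 1 to 2 with 1 array left out. Between day 28 and the other days in vehicle males (1 called), 3 were called when centred or after quantile normalization, 2 with the covariate, 0 among brighter miRNAs and 1 to 2 with 1 array left out. Between days 90 and 3 in vehicle males (0 called), 1 was called after quantile normalization and 2 without the arrays with a median under 4. In the mean of day 90 minus day 3 (3 called), 2 were called when centred or among brighter miRNAs, 4 after quantile normalization, 3 with the covariate and 5 without the arrays with a median under 4. It was also 5 without the arrays low in a main strand, but 3 of these 4 are of day 90 and none of day 3, so leaving them out raises the main strands at day 90 by construction. The arrays with a median under 4 include these 4. Among 90 differences between treated and vehicle rats, 5 turned sign without the arrays low in a main strand and 16 without those with a median under 4, and of 40 between days 90 and 3 in single combinations 4 and 6 did; none of these had passed. Examples are rno-miR-29b (-1.49 to 0.17) and rno-miR-29c (-1.08 to 0.03) in males of day 28 with rosiglitazone without the first set. Signs also turned for rno-miR-29c* in males of day 28 with pioglitazone 16 without the arrays with a median under 4 (0.16), and for rno-miR-29a (-0.20), rno-miR-29b (-0.99) and rno-miR-29c (-0.11) in females of day 90 with rosiglitazone without vehicle replicate 2; with 1 array left out at a time these ran up to 0.67, 2.04 and 1.44. Where no value above shows the reason, the cause was not tested.

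Over all 301 miRNAs, the calls higher and lower in males of day 28 were 13 and 25, 65 and 47, and 22 and 52 in the order pioglitazone 16, pioglitazone 63 and rosiglitazone. They were 9 and 28, 48 and 51, and 19 and 46 when centred, 22 and 21, 62 and 64, and 43 and 57 after quantile normalization, 9 and 27, 49 and 52, and 37 and 55 with the covariate, 24 and 31, 84 and 50, and 44 and 51 with failed arrays kept, 8 and 2, 64 and 8, and 15 and 7 among brighter miRNAs, 1 and 12, 40 and 48, and 18 and 50 with the replicate block, 40 and 3, 70 and 47, and 47 and 42 without the arrays with a median under 4, 0 and 0, 46 and 29, and 0 and 0 with only the groups compared, and 0 by the exact permutation test. For day 90 minus day 3 they were 10 and 35, against 10 and 16 when centred, 20 and 29 after quantile normalization, 22 and 34 with the covariate and 4 and 7 among brighter miRNAs. They were 13 and 31 without the arrays low in a main strand, and 21 and 36 without those with a median under 4. For the comparisons within vehicle rats and those in females, the counts over all miRNAs under the alternatives are not given here. Their counts of members thus have no share beside them.

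Over 168 pairs of arrays with the same replicate number, the correlation of their deviations ran from -0.78 to 0.79 with a median of 0.05, and 74 were over 0.1. Pairs with different numbers were not compared, so whether replicate numbers pair the arrays is not settled. With the replicate block, 1, 2 and 1 members were called in males of day 28 with pioglitazone 16, pioglitazone 63 and rosiglitazone, as without it. Limits include rno-miR-29a* being near the floor, the spread of rno-miR-29b, the 15 arrays with a median under 4 and the 4 vehicle males of day 28.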
